A study of Mus musculus with 12 samples.

Results

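Arg2, the mitochondrial arginase, and Gatm, the enzyme that starts creatine synthesis, are the 2 genes described here, in the renal medulla of 3 water-restricted and 3 control mice. They were represented by 2 of the 15600 clones on the arrays, 1 clone each, among 9191 clones annotated with a single gene. A clone was printed as 2 adjacent spots, whose log2 ratios were averaged. Both genes were chosen by their measured values on these same arrays: Arg2 for a difference between the groups with 1 sign on every array, and Gatm for differences between mice. Their levels and group differences are therefore given as a description, without a test.

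Arginine has several fates in the kidney. Arg2 splits it into ornithine and urea inside mitochondria. Gatm, or glycine amidinotransferase, also mitochondrial, moves the amidino group of arginine to glycine, which yields ornithine and guanidinoacetate. Guanidinoacetate is then methylated by Gamt, mostly in liver, to give creatine. In the kidney Gatm is known as an enzyme of the proximal tubule, and in the mouse Arg2 is known from the straight part of that tubule, which reaches into the outer medulla.

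Amplified RNA of a water-restricted and a control mouse was hybridised together on each of 12 two-channel arrays, so that all 9 pairs of mice were covered, 3 of them in both dye orientations. The labels give neither strain, sex, age, length of restriction nor how the medulla was dissected. In 6 arrays Alexa Fluor 546 labelled the water-restricted mouse (orientation 546), and in the other 6 Alexa Fluor 647 did (orientation 647). Ratios were turned to 1 orientation by changing the sign wherever Alexa Fluor 647 labelled the water-restricted mouse. Which dye is the numerator is not given in the sources used here. A positive value therefore means more RNA in the water-restricted mouse if Alexa Fluor 546 is the numerator, and less if Alexa Fluor 647 is. Above, below, high and low refer throughout to these turned values and would all be reversed in the latter case. Because 2-channel ratios hold no level of a sample by itself, the tissue label could not be checked by the presence or absence of markers. The SD over all spots was 0.515 to 0.764 on 11 arrays, while water-restricted mouse 2 against control mouse 2 gave 1.21. Adjacent spots correlated at 0.362 to 0.684 within arrays, across clones.

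The upstream sequence of Gatm is shown because Gatm had the wider spread between mice of the 2 genes, and that of Ddah1 because it is the pathway gene whose levels in the 6 mice followed Gatm most closely. Both are the 250 bases before the start of the gene in RefSeq (GRCm38.p6), at chr2:122611278-122611527 on the minus strand for Gatm and chr3:145758442-145758691 on the plus strand for Ddah1. Capitals mark matches, on either strand, to 4 motifs: AGGTCA, a core of nuclear receptor sites, CCAAT, the CCAAT box, TGGAAA, a core found in NFAT and tonicity elements, and GTTAAT, part of an HNF1 site.
Gatm: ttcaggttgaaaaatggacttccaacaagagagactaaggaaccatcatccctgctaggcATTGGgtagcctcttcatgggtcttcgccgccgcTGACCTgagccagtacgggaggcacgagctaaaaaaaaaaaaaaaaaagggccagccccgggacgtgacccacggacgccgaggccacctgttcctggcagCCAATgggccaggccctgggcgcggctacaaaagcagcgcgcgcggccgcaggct
Ddah1: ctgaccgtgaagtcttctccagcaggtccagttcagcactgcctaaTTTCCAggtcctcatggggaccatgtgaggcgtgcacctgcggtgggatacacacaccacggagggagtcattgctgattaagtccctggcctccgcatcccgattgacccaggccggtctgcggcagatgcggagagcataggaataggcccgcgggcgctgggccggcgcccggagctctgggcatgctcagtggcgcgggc
Gatm held AGGTCA 1 time and CCAAT 2 times, and Ddah1 held TGGAAA 1 time. None of the 4 motifs was in both windows. Among 32851 windows of this length, AGGTCA was in 14%, CCAAT in 33.8%, TGGAAA in 18.6% and GTTAAT in 6.43%. A match is a description of the letters and not a binding site.

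Arg2 had a positive ratio on 12 of 12 arrays. With control mouse 1 its log2 ratio was 1.00 for water-restricted mouse 1, 0.65 and 1.53 for mouse 2 in the orientations 546 and 647, and 0.86 for mouse 3. With control mouse 2 it was 1.11 for mouse 1, 0.77 for mouse 2, and 0.46 and 0.95 for mouse 3. With control mouse 3 it was 0.60 and 0.99 for mouse 1, 0.93 for mouse 2 and 0.69 for mouse 3. The ratio thus lay on 1 side whichever mice were compared, from 0.46 to 1.53 with a median of 0.90. The lowest array value rests on spots that disagreed. For water-restricted mouse 3 in Alexa Fluor 546 with control mouse 2, the spots of the Arg2 clone read 1.48 and -0.56, a gap of 2.03 that 1.24% of clones reached on that array. Of the 24 spot values 23 were positive, and -0.56 was the exception. Across all 6786 genes, 1.46% were positive on all 12 arrays. Arg2 was chosen for that property, so nothing is read from it.

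Gatm split the arrays by control mouse instead. With control mouse 1 its log2 ratio was -0.40 for water-restricted mouse 1, -0.59 and 0.12 for mouse 2 in the orientations 546 and 647, and 0.89 for mouse 3. With control mouse 2 it was 2.34 for mouse 1, 1.66 for mouse 2, and 2.18 and 2.89 for mouse 3. With control mouse 3 it was 1.80 and 2.25 for mouse 1, 2.25 for mouse 2 and 2.24 for mouse 3. All 8 arrays with control mouse 2 or 3 lay above all 4 arrays with control mouse 1. The spots of the Gatm clone differed by a median of 0.10, against 0.26 for Arg2. The widest Gatm gap, 1.02, was on the array of water-restricted mouse 2 with control mouse 2, where spots over the whole array varied most.

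**Figure D1:**
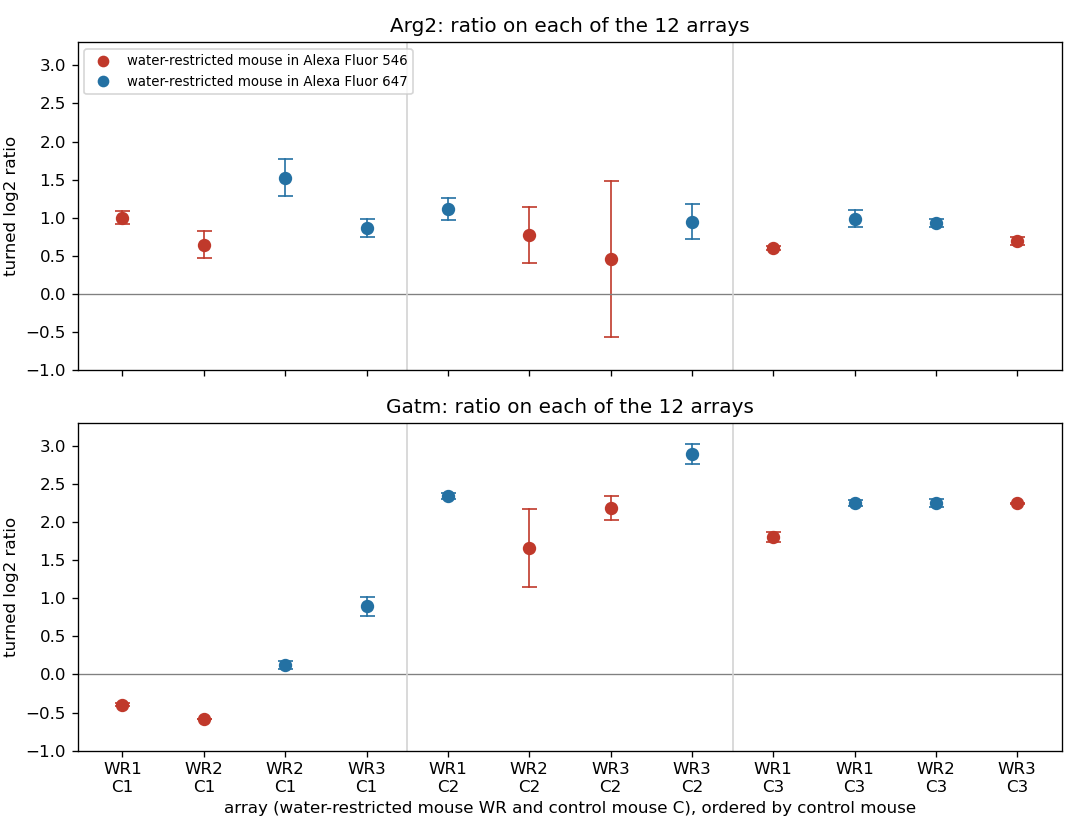
Turned log2 ratio (y axis) of Arg2 (top) and Gatm (bottom) on each of the 12 arrays (x axis, named by water-restricted mouse WR and control mouse C and ordered by control mouse). Points are the mean of the 2 spots, short bars are the single spots, and colour is the dye of the water-restricted mouse. Arg2 is positive on all 12 arrays, and Gatm lies between -0.59 and 0.89 with control mouse 1 and between 1.66 and 2.89 with control mice 2 and 3.

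The 3 pairs of mice hybridised with dyes swapped show how the deposited ratio behaves for both genes. For Arg2 the ratio as deposited was 0.60 and -0.99 for water-restricted mouse 1 with control mouse 3, 0.65 and -1.53 for mouse 2 with control mouse 1, and 0.46 and -0.95 for mouse 3 with control mouse 2. The sign changed with the dyes in all 3 pairs. That was fixed in advance, because Arg2 was chosen for 1 sign on every turned array. For Gatm the deposited values were 1.80 and -2.25, -0.59 and -0.12, and 2.18 and -2.89 in the same order. The sign changed in the pairs with control mice 3 and 2, and both values were below 0 in the pair with control mouse 1. Over all clones the turned arrays of these pairs correlated at 0.14, -0.13 and 0.13 in the same order.

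Fitted levels of the single mice put Arg2 into 2 groups that did not overlap. The fit gives each mouse a log2 level, centred on 0 over the 6 mice, with a dye term. Arg2 had levels of 0.53, 0.49 and 0.31 in water-restricted mice 1, 2 and 3, and of -0.54, -0.42 and -0.36 in control mice 1, 2 and 3, each with a technical SE of 0.11. The range was 0.22 within the water-restricted and 0.18 within the control mice. The median over all genes was 0.39 and 0.42, so mice of a group lay closer together for Arg2 than for most genes. A choice for 1 sign on every array favours such small ranges, so nothing is read from them. The group means were 0.44 ± 0.12 and -0.44 ± 0.09 (SD, n = 3 mice each), and the difference was 0.88 on the log2 scale (moderated SE 0.15), a factor of 1.85. All 3 water-restricted levels lay above all 3 control levels in 5.94% of genes, and Arg2 was chosen on that contrast.

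Gatm levels of the groups overlapped. It had 0.58, 0.49 and 1.15 in the restricted mice, -1.44 and -1.43 for control mice 2 and 3, with control mouse 1 at 0.65, with a technical SE of 0.09. Control mouse 1 lay among the water-restricted mice, above 2 of the 3. The group means were 0.74 ± 0.36 and -0.74 ± 1.21 (SD, n = 3 mice each), and their difference was 1.48 (moderated SE 0.52). Without control mouse 1 the difference was 2.18 (SE 0.23), a factor of 4.52, while against control mouse 1 alone it was 0.09, a factor of 1.06. Without control mouse 2 or 3 it was 1.13 in both cases. The group value for Gatm thus depended on which control mice entered it. That of Arg2 ran from 0.83 to 0.95 when each of the 6 mice was left out in turn. Arg2 was chosen for 1 sign on every array and Gatm for differences between mice, so nothing is read from this contrast.

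The distance between control mice was measured anew with each water-restricted mouse. After removal of the dye term, Gatm in control mouse 1 minus control mouse 2 was 2.09, 2.22 and 1.97, and minus control mouse 3 it was 2.10, 2.16 and 2.00, on arrays with water-restricted mice 1, 2 and 3. Control mice 2 and 3 differed by 0.01, -0.05 and 0.03 in the same settings. With Alexa Fluor 647 as the numerator control mouse 1 would lie below control mice 2 and 3 by these amounts. The distances were alike whichever water-restricted mouse shared the array. For Arg2 control mouse 1 minus control mouse 2 was -0.18, -0.17 and -0.01, and control mouse 1 minus control mouse 3 was -0.36, -0.30 and 0.12. The Arg2 distances changed sign in the last case. Control mouse 1 stood 2.09 from the mean of control mice 2 and 3 in Gatm, a factor of 4.25 on the positive side, and 0.15 from it in Arg2, on the negative side. A control range as wide as that of Gatm, 2.09, occurred in 30 of 6786 genes, Gatm included, and one as wide as that of Arg2 in 5867. Gatm was chosen for differences between mice and Arg2 for 1 sign on every array. Nothing is therefore read from the place of either among the genes.

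Both genes can be set against each other array by array. Gatm had a larger ratio than Arg2 on 8 of 8 arrays with control mouse 2 or 3, by 0.89 to 1.94, and a smaller one on 3 of 4 arrays with control mouse 1. On the remaining array, of water-restricted mouse 3, the gap was 0.03. The ratios of both genes correlated at -0.21 (Spearman 0.14) over the 12 arrays, and the levels at 0.60 over the 6 mice. These points share mice, arrays and dyes, and the values are a description.

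**Figure D2:**
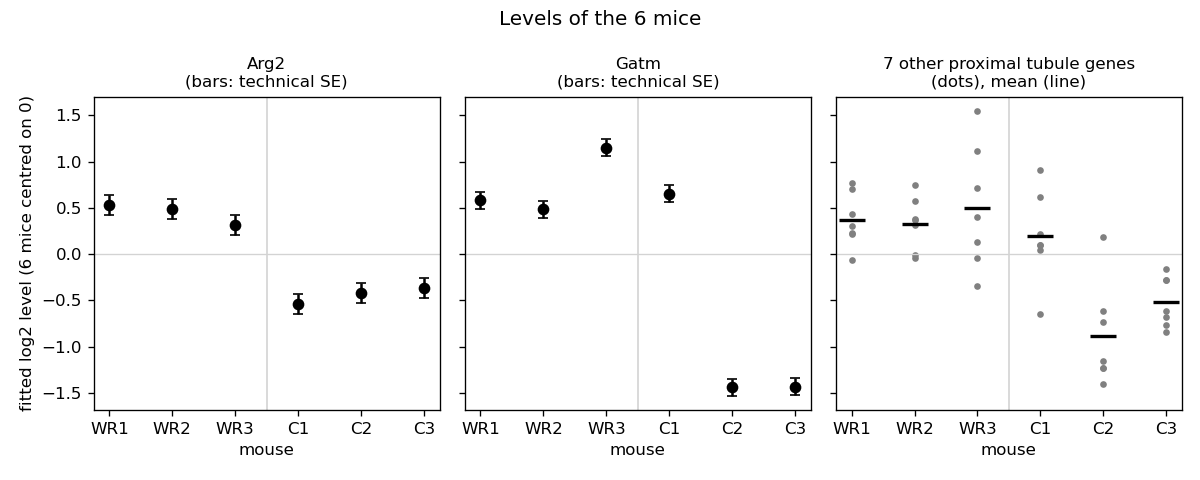
Fitted log2 level (y axis, 6 mice centred on 0) of Arg2, of Gatm and of 7 other proximal tubule genes in each mouse (x axis; WR water-restricted, C control). Bars for Arg2 and Gatm are the technical SE of 0.11 and 0.09, and in the right panel dots are genes and lines their mean. Arg2 separates the groups, whereas for Gatm and for the mean of the tubule genes control mouse 1 lies near the water-restricted mice.

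The mean level of other proximal tubule markers followed Gatm over the mice, though not every marker did and none passed the limma threshold. Apart from Gatm, 7 of 39 listed genes were measured, and 6 of these 7 lay on the positive side, with a median difference of 0.92. Their mean level was 0.37, 0.33 and 0.50 in the restricted mice, and 0.19, -0.88 and -0.51 in control mice 1, 2 and 3. Control mouse 1 lay nearest to the restricted mice among the controls, as it did for Gatm, whichever dye is the numerator. Over the 6 mice this mean correlated at 0.97 with Gatm and at 0.70 with Arg2. Of the measured genes, the endocytic receptor Lrp2 had a difference of 1.05 (SE 0.35), the scaffold protein Pdzk1 1.20 (SE 0.30) and inositol oxygenase Miox 1.43 (SE 0.32). Principal cell markers lay on the other side: 8 of 18 were measured, 0 of 8 were positive, and their mean was -0.26, -0.16 and -0.29 in the water-restricted and 0.12, 0.20 and 0.40 in the control mice. Their mean correlated at -0.85 with Gatm and at -0.87 with Arg2 over the 6 mice, so for these markers both genes were about equally close. The share of these cell types in the samples was not tested, and in bulk RNA fewer cells of a type and less RNA per cell cannot be told apart. For other types, thin limb (2 of 10 genes measured) had a median of 0.24, intercalated cell (2 of 13) -0.40, interstitium (9 of 12) -0.25, endothelium (2 of 13) 0.13, leukocyte (4 of 19) 0.10, urothelium (2 of 11) -0.18 and erythroid (3 of 9) -0.74. Slc4a1, at -0.74, was on both the intercalated cell and the erythroid list and set the erythroid median. Of 11 listed thick ascending limb genes 0 were measured. By limma the adjusted p of Lrp2, Pdzk1 and Miox was 0.771, 0.702 and 0.553. With random mouse effects these 3 of the 7 proximal tubule genes passed on the positive side (adjusted p = 0.0423, 0.00607 and 0.00608), where 1.08% of all genes did. The other 4 did not (adjusted p from 0.134 to 0.947). Of the principal cell genes, Fxyd4, Krt18 and Gata3 passed on the negative side with this fit (adjusted p = 0.00183, 0.00503 and 0.0241). On that side 0.575% of all genes passed. The remaining principal cell genes did not pass (adjusted p from 0.102 to 0.868). Col3a1 of the interstitium list and Hbb-b1 of the erythroid list also passed on the negative side (adjusted p = 0.0183 and 0.00386). That fit takes 1 ratio of mouse to array variance, 0.124, for all genes. Its adjusted p can be too small where mice of a group differ widely. Lrp2 levels, for example, were 0.10, -1.40 and -0.27 in control mice 1, 2 and 3. Cyp7b1, a steroid hydroxylase, was the proximal tubule gene on the negative side at -0.08. Unlike Gatm, Miox had control mouse 1 at -0.64, close to the other controls at -0.73 and -0.76.

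The dye term was not what chose the genes and was tested, with a limit for Arg2 given below. It is the part of the ratio that stays with the dye and does not turn with the mice. For Gatm it was -0.32 (SE 0.06, limma adjusted p = 0.0164 over all genes), and for Arg2 it was -0.15 (SE 0.07, adjusted p = 0.212). The choice of Arg2 for 1 sign on every turned array limited how large its dye term could be. Nothing is therefore read from the lack of a call for Arg2. Across all genes the dye term passed the threshold of 0.05 in 11.3%, so 1 of both members beside that share is no result about them. On average the turned ratio of Gatm was 1.15 in the orientation with the water-restricted mouse in 546 and 1.79 in the other, and that of Arg2 was 0.70 and 1.06. With 1 mouse left out the Gatm call was lost in each of the 6 cases, with adjusted p from 0.0884 to 0.279 on fewer arrays. Dye calls over all genes fell from 769 to between 0 and 11 in these cases, so the loss is not particular to Gatm. With the second spot alone the adjusted p of Gatm was 0.0927. The side of the group difference was the same in both orientations for both genes. For Arg2 that was fixed in advance by its choice for 1 sign on every array, so nothing is read from it.

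One further clone carries Arg2 in its annotation together with Vti1b, so its signal cannot be assigned to either gene and it was not counted. Its turned ratio was positive on 3 of 12 arrays, with a median of -0.50 in the orientation 546 and of -0.06 in the orientation 647. The clone annotated with Arg2 alone was positive on all 12 arrays.

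The other genes of arginine and creatine metabolism were taken from 8 lists of 100 genes, of which 50 were measured. In the comparison of 3 with 3 mice, 0 of these 50 passed the limma threshold (adjusted p of 0.559 or more), where 0% of all 6786 genes passed. At an unadjusted p under 0.05 there were 8 on the positive side and 0 on the negative side, against 3.21% of all genes on the positive and 1.75% on the negative side. With random mouse effects, an alternative fit, 4 were positive and 0 negative at an adjusted p under 0.05, against 1.08% and 0.575% of all genes. Those 4 were Ahcy, Gcsh, Glul and Ddah1. The limit given above for the adjusted p of this fit applies to them too. On balance 32 of 50 were positive and 18 negative, with a median difference of 0.09, beside 50.7% positive and a median of 0.00 over all genes.

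Partners of Gatm in creatine metabolism were few on these arrays. Gamt was not among the measured genes. Slc6a8, the creatine transporter, had a difference of 0.50 (SE 0.16). Its levels were 0.09, 0.32 and 0.33 in the water-restricted and -0.25, -0.42 and -0.09 in the control mice. These groups did not overlap, where 5.94% of all genes had all 3 water-restricted above all 3 control levels. Ckb, the brain-type creatine kinase, had 0.52 (SE 0.31), with control mouse 3 at 0.48 among the water-restricted mice. Ckmt1, a mitochondrial creatine kinase, had -0.04 (SE 0.31), and levels of both groups were mixed. None of the 3 passed (limma adjusted p = 0.771 for Slc6a8 and 0.996 for the other two).

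Genes that make arginine or receive its ornithine differed in side and size. Asl, which releases arginine from argininosuccinate, had 0.60 (SE 0.25), with water-restricted mouse 3 at 0.89 beside -0.10 and 0.11 in mice 1 and 2, and the control mice at -0.22, -0.42 and -0.26; without water-restricted mouse 3 the difference was 0.30. Slc25a13, a mitochondrial aspartate and glutamate carrier, had 0.26 (SE 0.20). Arg1, the cytosolic arginase, was not among the measured genes. Oat, which turns ornithine into a precursor of proline and glutamate, had -0.05 (SE 0.15). Of 4 measured genes of the proline and glutamate branch 3 were positive: Glul, or glutamine synthetase, at 0.65 (SE 0.22), Pycrl, a pyrroline carboxylate reductase, at 0.38 (SE 0.19), and Glud1, or glutamate dehydrogenase, at 0.37 (SE 0.20). Glul levels were 0.40, 0.02 and 0.55 in the water-restricted and -0.01, -0.31 and -0.66 in the control mice. The groups for Glul did not overlap, with a gap of a few hundredths between water-restricted mouse 2 and control mouse 1. In 5.94% of all genes the water-restricted levels all lay above the control levels. In the polyamine list 5 of 10 genes were positive, with a median of 0.02. Odc1, which makes putrescine from ornithine, had 0.05 (SE 0.30), and its control levels of 0.73, -0.45 and -0.36 held both the highest and the lowest values of the 6 mice. Sat1, a polyamine acetylase, had 0.31 (SE 0.17), Sms, or spermine synthase, 0.33 (SE 0.20), and Azin1, an antizyme inhibitor, 0.20 (SE 0.17). The lowest value of the 50 pathway genes was that of Oaz1 in this list, -0.64 with a wide SE of 0.83. Adjusted p of every gene in this paragraph was 0.771 or more by limma.

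In the nitric oxide list 4 of 12 genes were measured, and the nitric oxide synthases were not among them. Ddah1, which breaks down the methylated arginines that inhibit nitric oxide synthases, had the largest difference of the 50 pathway genes, at 1.00 (SE 0.32, limma adjusted p = 0.771). It was positive on 12 of 12 arrays, as were 1.46% of all genes. Its levels were 0.66, 0.28 and 0.57 in the restricted mice, -0.97 and -0.83 for control mice 2 and 3, with control mouse 1 at 0.29. Control mouse 1 lay just above water-restricted mouse 2, so the groups overlapped, as for Gatm. The related Ddah2 lay on the other side at -0.23 (SE 0.20), and Qdpr, which recycles the cofactor of these synthases, had 0.31 (SE 0.27). Of 7 arginine methyltransferases 4 were positive, from -0.21 to 0.09 with a median of 0.04. The 3 with the largest difference relative to its SE were negative: Prmt2 at -0.15 (SE 0.17), Prmt8 at -0.21 (SE 0.40) and Prmt9 at -0.07 (SE 0.16). The 3 measured genes of arginine transport ran from -0.07 to 0.26, the latter for Slc7a8, a neutral amino acid transporter.

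The supply of glycine and methyl groups, which creatine synthesis draws on, held 12 positive of 17 measured genes, with a median of 0.19. Ahcy, which removes the product of methylation reactions, had 0.72 (SE 0.16, limma adjusted p = 0.559), with levels of 0.27, 0.29 and 0.51 in the water-restricted and of -0.18, -0.34 and -0.56 in the control mice. Gcsh, a carrier protein of glycine cleavage, had 0.72 (SE 0.21, adjusted p = 0.771), and Cbs, which draws homocysteine into cysteine synthesis, 0.77 (SE 0.25, adjusted p = 0.771). These 3 genes were positive on 12 of 12 arrays, as were 1.46% of all genes. The groups of levels did not overlap for Ahcy or Gcsh, with the water-restricted above the control levels, as in 5.94% of all genes. For Cbs, water-restricted mouse 1, at -0.07, lay below control mouse 1, at -0.05. These genes were named for a large difference relative to its SE, so nothing is read from either property. On the negative side Phgdh, the first enzyme of serine synthesis, had -0.50 (SE 0.29, adjusted p = 0.996).

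**Figure D3:**
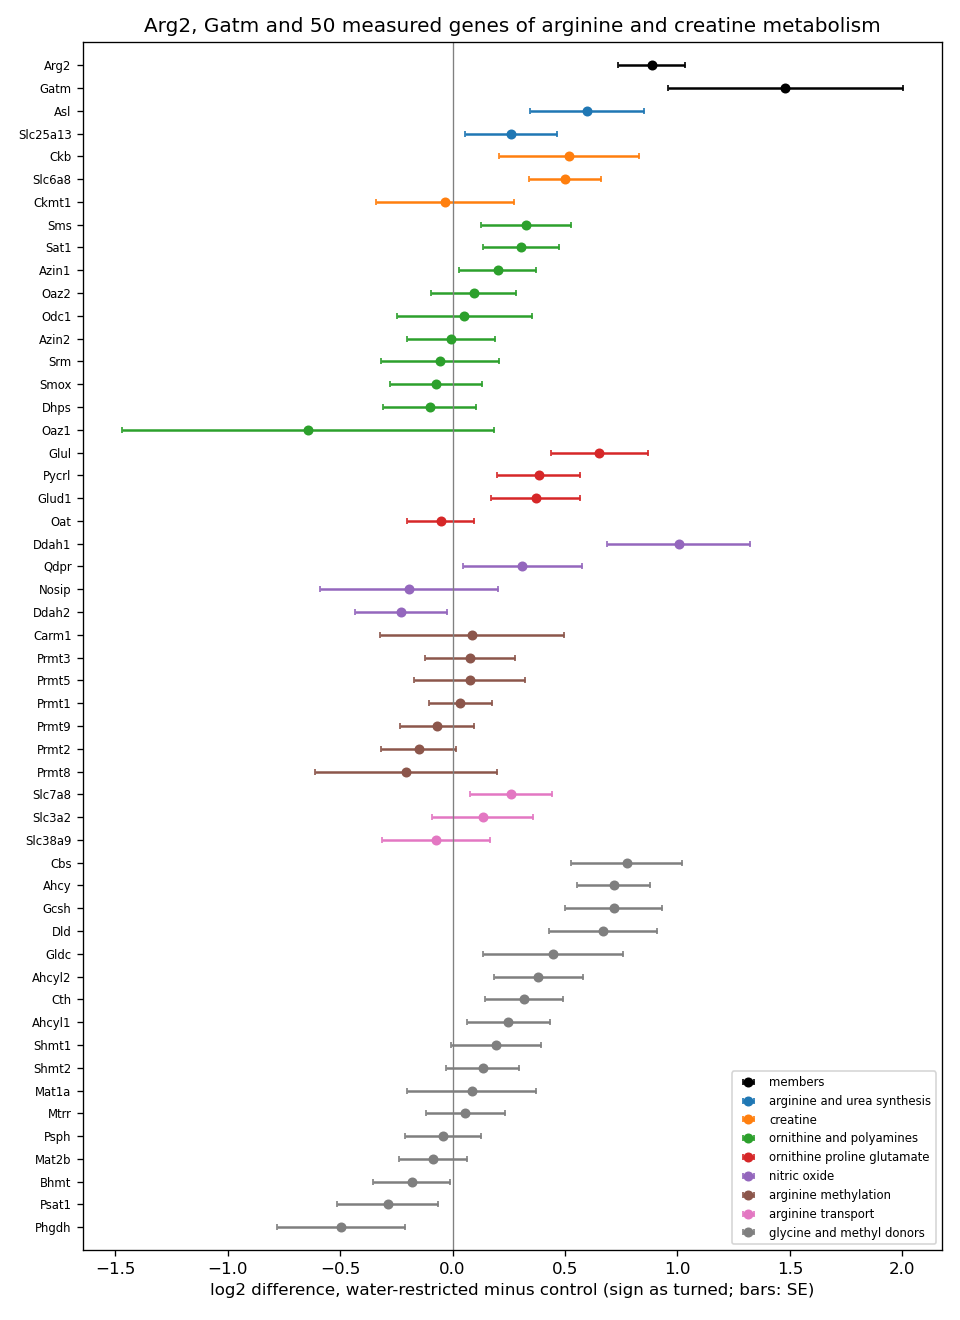
Log2 difference between groups (x axis, water-restricted minus control with the sign as turned) of Arg2, Gatm and the 50 measured pathway genes (y axis), coloured by list. Points are the difference of 3 with 3 mice and bars its moderated SE. Of the 50 genes 32 lie on the positive side, Ddah1 has the largest difference at 1.00, and none passed the threshold.

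Genes whose ratio over the 12 arrays was most like that of Gatm, by Pearson correlation among 6786 genes, were partly on the lists above. Tmem174, a kidney membrane protein and 1 of the 7 proximal tubule genes averaged above, was at 0.93 and Ddah1 at 0.92. Outside the lists the highest were Gpr137b at 0.91, Ces1d, a carboxylesterase, at 0.91, Caly at 0.87, Abcd3, a peroxisomal transporter, at 0.87 and Gng12, a G protein subunit, at 0.86. Over the 6 mouse levels the correlation with Gatm was 0.97 for Ddah1, 0.96 for Tmem174 and Ces1d, 0.95 for Gpr137b and 0.93 for Abcd3, but 0.60 for Caly and 0.01 for Gng12. Ces1d had levels of 0.45, 0.26 and 1.19 in the restricted mice and of 0.15, -0.80 and -1.25 in the control mice. The arrays share mice and dyes, and both correlations are a description.

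For Arg2 the likeness over arrays did not carry over to the mice. Outside the lists the highest correlations over the 12 arrays were those of the splicing regulator Tra2a at 0.91, Hspg2, or perlecan, at 0.86, Svil, an actin-binding protein, at 0.86, Ttc14 at 0.84 and the transcription factor Yy1 at 0.84. Over the 6 mouse levels these were 0.41, -0.06, -0.47, -0.48 and 0.77. Their group differences ran from -0.29 (SE 0.20) for Svil to 0.26 (SE 0.16) for Yy1, against 0.88 for Arg2. The residual SD of Arg2 between arrays, 0.22, was larger than the SD of its levels between mice of a group, 0.12 and 0.09.

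**Figure D4:**
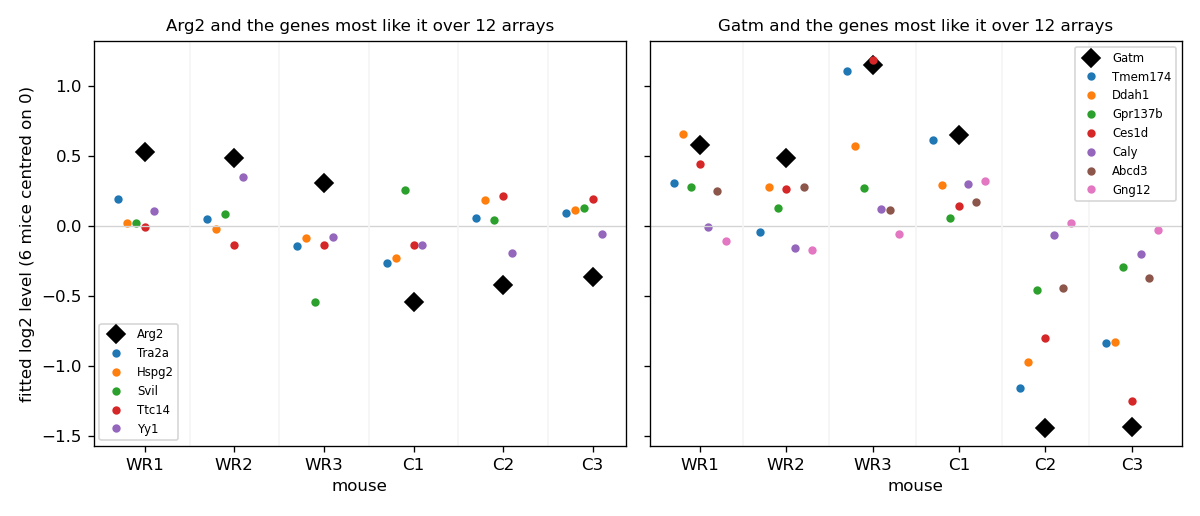
Fitted log2 level (y axis, 6 mice centred on 0) in each mouse (x axis; WR water-restricted, C control) of Arg2 (left) and Gatm (right), black diamonds, and of the genes with the highest correlation to each over 12 arrays, coloured points. Most genes most like Gatm have control mice 2 and 3 apart from the other 4 mice, with Caly and Gng12 as exceptions, while those most like Arg2 over arrays do not separate the groups as Arg2 does.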

How the data were processed

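Each array has 31200 spots, and for every spot the authors deposited the log2 of the ratio between channels. The base was read from the values. Dye labels come from the sample labels, while for scanner, background correction, normalization and numerator nothing is stated in the labels. Adjacent spots were averaged to clones, and clones of a gene to 6786 genes, with symbols from the platform annotation updated through Entrez identifiers where RefSeq held them (9085 of 9191 clones).

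Levels of the 6 mice came from weighted least squares (arrays of a swapped pair weighing 0.5 each) with a dye term, and were compared 3 with 3 by limma 3.58.1 in R 4.3.3, with Benjamini-Hochberg adjustment over all genes at 0.05. The dye term was tested by limma on all 12 arrays, with technical error. P-values measure the spread between these mice or arrays only, and their number limits the precision. Scripts were tested on simulated data.

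The genes and lists were chosen with earlier results of these data known. In each pathway list up to 3 genes with the largest difference relative to its SE were named, and outside the lists the 5 genes most correlated with each member. Oat, Odc1, Oaz1, Phgdh, Lrp2, Pdzk1, Miox, Cyp7b1, Fxyd4, Krt18, Gata3, Col3a1, Hbb-b1 and Slc4a1 were named after their values were seen. Alternatives were centring, scaling, weights, no dye term, mouse number as a block, single orientations, single spots, no turning, random mouse effects (a mouse variance common to all genes) and leaving out mice or arrays.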

Additional observations from a re-analysis of the deposited data

Results flagged for a closer look

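Among the 6 arrays of an orientation, 1 array stood apart from the others in 3 of the 40 sets of values examined, and about 1 in 20 would by chance. Ckmt1 read 2.33 on the array of water-restricted mouse 2 with control mouse 2, with the nearest array of the orientation at -0.01. Gcsh read 1.69 on that same array, with the nearest at 0.81. This array had the widest spread over all spots. Pycrl read 0.30 for water-restricted mouse 1 in Alexa Fluor 546 with control mouse 3, with the nearest at 0.71. No value of Arg2 or Gatm stood apart in this way.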

How the results depend on the processing

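The group difference of Arg2 was 0.70 in the orientation 546 alone, 1.06 in the orientation 647 alone, 1.00 from the first and 0.77 from the second spot alone, and 0.83 to 0.95 with each mouse left out. That of Gatm was 1.13 to 2.18 with each mouse left out. Genes past the threshold numbered 0 in the 3 with 3 comparison, 1 in the orientation 647 alone and 112 with random mouse effects, and pathway genes 0 and, with random mouse effects, 4. Genes past the threshold for the dye term numbered 769, and 449 with equal weights, 337 with the first and 415 with the second spot alone, 355 without the array on which the Arg2 spots disagreed (chosen after seeing the data) and 0 to 11 with each mouse left out. The dye term of Gatm was -0.34 to -0.29 with each mouse left out and -0.25 with the second spot alone. With no sign turned, the group and dye terms change places by construction: Arg2 -0.15 and Gatm -0.32, their dye terms 0.88 and 1.48, Ckmt1 0.35, Sat1 -0.035, Sms -0.0093, Azin1 -0.19, Ddah1 -0.14, Ddah2 0.27 and Slc7a8 -0.10. Sides also changed for Ckmt1 (0.17 in the orientation 546, 0.060 with the first spot, 0.0088 without the disagreeing array, -0.31 to 0.20 with each mouse left out), for Ddah2 (0.0036 in the orientation 546), and for Slc25a13 and Qdpr (-0.090 and -0.022 in the orientation 647). The cause was not tested. Deviations of mice with the same number correlated at -0.01, -0.54 and -0.11 for numbers 1, 2 and 3, none of them positive. The array that paired water-restricted mouse 2 with control mouse 2 had the widest spread over all spots. With the replicate number as a block Arg2 was 0.88 (SE 0.17), Gatm 1.48 (SE 0.49) and 0 pathway genes passed. How far signal lay above background is unknown here.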
